A study of Mus musculus with 12 samples.

Results

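Cells make cholesterol and fatty acids from acetyl-CoA, and 43 genes of these routes were followed through the differentiation of C2C12 myoblasts into myotubes. The list holds 18 enzymes of sterol synthesis, 5 regulators of the sterol response, 5 sterol transporters and 15 genes of fatty acid supply, synthesis, desaturation and use. Members were taken by gene symbol from a list of these routes that was chosen with earlier results of these data known. Each gene was read from the brightest of its probes over all 12 arrays. A probe named by 1 gene existed for 40 of the 43 members and for 19057 genes in all. A gene was tested if, at 1 stage or more, each of its 3 arrays read above the median of that array, which held for 37 members and 11870 genes. The enzymes Acat2, Hmgcs1 and Fdft1 had no probe named here and were not analysed, and Abca1, Abcg1 and Acaca stayed below the filter at every stage.

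C2C12 is a clonal mouse myoblast line whose cells stop dividing and fuse once they are crowded and serum is lowered. Total RNA was profiled on Illumina bead arrays at 4 stages with 3 arrays each. The first stage was myoblasts at 50% confluence and the second was myoblasts at 95% confluence, both grown in DMEM with 10% BCS. The later stages were myotubes taken 24 h and 48 h into differentiation, which was begun at full confluence. Their DMEM held 2% heat-inactivated horse serum, insulin at 10 µg/ml and transferrin at 10 µg/ml. Time in differentiation, serum, insulin and transferrin changed together between myotubes and myoblasts, so their effects cannot be told apart. Because differentiation was begun at full confluence, myotubes and 50% myoblasts also differed in confluence, whose part cannot be told apart from these either. All groups are the same line, the labels do not say whether the 3 replicates of a stage came from separate cultures, and the p-values therefore measure the spread between these samples.

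Sterol regulatory element-binding proteins (SREBPs), encoded by Srebf1 and Srebf2, are transcription factors held in the endoplasmic reticulum as inactive precursors. When membranes are poor in sterol, the escort protein Scap carries them to the Golgi, where proteases release the active part. When sterol is plentiful, Insig1 and Insig2 hold Scap back. Genes of cholesterol synthesis and of fatty acid desaturation are among the best known SREBP targets, and insulin is a known inducer of Srebf1 in liver.

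The sequence just before the start of 6 members is printed because SREBPs act at such promoters together with factors that bind the CCAAT box and the GC box. Mvd, Nsdhl, Cyp51 and Acss2 are shown because they were among the members with the largest rises. Fasn is shown because it passed no test with all arrays, and Hmgcs1 because its window alone held the sterol regulatory element among the members. Each run gives the 250 bases before the start of the RefSeq gene in build GRCm38.p6, 5′ to 3′ on the strand of the gene, in lower case with CCAAT (or ATTGG on the other strand) in capitals and, in Hmgcs1, TCACCCCAC in capitals as well.
Mvd (chr8:122443423-122443672, minus strand): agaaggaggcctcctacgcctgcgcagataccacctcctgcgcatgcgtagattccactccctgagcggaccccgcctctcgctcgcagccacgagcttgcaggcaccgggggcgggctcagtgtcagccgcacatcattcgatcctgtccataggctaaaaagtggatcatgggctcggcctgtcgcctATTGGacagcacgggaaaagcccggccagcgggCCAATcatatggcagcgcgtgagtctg
Nsdhl (chrX:72918271-72918520, plus strand): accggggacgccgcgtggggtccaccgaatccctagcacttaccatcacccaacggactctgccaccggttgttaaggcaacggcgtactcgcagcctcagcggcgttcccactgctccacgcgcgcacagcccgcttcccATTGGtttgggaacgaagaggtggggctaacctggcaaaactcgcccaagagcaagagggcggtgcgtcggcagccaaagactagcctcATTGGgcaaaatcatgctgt
Cyp51 (chr5:4104698-4104947, minus strand): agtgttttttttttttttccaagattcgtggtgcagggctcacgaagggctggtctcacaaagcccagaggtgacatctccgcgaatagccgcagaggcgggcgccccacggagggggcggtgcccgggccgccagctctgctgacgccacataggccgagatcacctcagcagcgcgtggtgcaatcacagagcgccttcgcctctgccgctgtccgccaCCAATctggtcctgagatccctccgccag
Acss2 (chr2:155517793-155518042, plus strand): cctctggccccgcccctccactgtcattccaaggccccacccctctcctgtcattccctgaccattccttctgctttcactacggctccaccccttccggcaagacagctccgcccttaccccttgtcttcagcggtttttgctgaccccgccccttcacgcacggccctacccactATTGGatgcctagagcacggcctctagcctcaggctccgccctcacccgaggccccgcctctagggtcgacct
Fasn (chr11:120824548-120824797, minus strand): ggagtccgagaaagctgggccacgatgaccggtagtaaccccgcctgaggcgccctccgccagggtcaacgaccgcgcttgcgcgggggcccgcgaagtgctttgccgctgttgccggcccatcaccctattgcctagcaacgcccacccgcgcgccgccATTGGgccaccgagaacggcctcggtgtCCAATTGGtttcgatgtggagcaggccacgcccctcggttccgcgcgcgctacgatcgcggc
Hmgcs1 (chr13:119690101-119690350, plus strand): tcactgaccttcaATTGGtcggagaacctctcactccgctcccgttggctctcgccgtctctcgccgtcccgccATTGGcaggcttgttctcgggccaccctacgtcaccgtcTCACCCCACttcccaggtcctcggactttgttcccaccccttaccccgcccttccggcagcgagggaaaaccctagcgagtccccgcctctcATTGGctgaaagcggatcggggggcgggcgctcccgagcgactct

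The set of RefSeq promoter windows used here held none for Fdps, Fdft1, Sqle, Scd1, Scd2, Fads1, Stard4, Npc1 and Abcg1. It held windows for the other 34 of the 43 members, and for 30 of the 37 that were tested. The pentamer CCAAT, read on both strands, lay in the window of 24 of these 30 members (80.0%), against 40.1% of the 9582 tested genes with a window. Among the other genes of the same routes, 25 of 45 windows held it (55.6%). The GC box GGGCGG, also read on both strands, lay in the windows of 25 of the 30 members (83.3%), against 61.7% of the tested genes. The window of Fasn, which passed no test with all arrays, held CCAAT 3 times, with 2 of these matches sharing bases. The sterol regulatory element TCACCCCAC, and its looser form TCACNCCAC, were found among the members' windows only in that of Hmgcs1. Over all 32851 promoter windows in the table, the strict form lay in 0.496% and the looser in 1.05%. Its core CACCCCAC, which lies within the strict form, was found in Acat2, Hmgcs1 and Idh1 and in 2.58% of all windows. Counted by gene, the core lay in 1 of the 30 tested members with a window (3.33%), against 3.52% of the tested genes. These are matches of letters within 250 bases, and binding was not measured.

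The stages were checked against markers. The mean log2 intensity over 11 myotube markers was 8.46 to 8.93 on the 50% arrays, 6.92 to 7.73 on the 95% arrays, 11.85 to 12.28 on the 24 h arrays and 13.69 to 13.80 on the 48 h arrays. All 11 were higher at 24 h than at 95% confluence (16.0% of all genes were), and 8 were lower at 95% than at 50% (21.0%). The mean over 7 proliferation markers was 11.12 to 11.17 at 50%, 10.69 to 11.11 at 95%, 10.16 to 10.25 at 24 h and 9 to 9.05 at 48 h. Myoblast markers did not fall as a mean with differentiation. The mean over 6 of them, 4 past the filter, was 8.91 to 8.99 at 50% and 8.70 to 9.04 at 95%. It was 9.37 to 9.44 at 24 h and 9.61 to 9.63 at 48 h. At 48 h against 50%, 3 of the 4 tested were higher (26.6% of all genes) and 0 lower (29.9%). At 48 h against 24 h, 2 were higher (22.8%) and 1, Cdh2, was lower (22.1%), by 0.23 on the log2 scale. Myf5 and Pax7 lay below the filter. Of the adipocyte markers, Adipoq, Fabp4, Plin1, Retn and Cidec lay below the filter at every stage, and so did all 4 hepatocyte markers. Lpl, a lipase that is also an adipocyte marker, was higher at 95% than at 50% (log2 change 1.39 ± 0.30 SE, adjusted p = 0.00297), and Pparg was lower (-0.52 ± 0.12 SE, adjusted p = 0.00426). At 48 h against 50% Lpl did not pass (0.12, adjusted p = 0.776) and Pparg was lower (-0.85, adjusted p = 5.5e-05). The mean over the 9 measured adipocyte markers, 4 of which passed the filter, was 7.12 to 7.14 at 50%, 7.199 to 7.32 at 95%, 7.13 to 7.17 at 24 h and 7.02 to 7.05 at 48 h. The mean over 5 fibroblast markers, 4 of them past the filter, was 7.54 to 7.68, 7.41 to 7.84, 8.02 to 8.14 and 7.86 to 7.93 at the same stages. At 48 h against 50%, 3 of these 4 were higher (26.6% of all genes) and 1, Pdgfra, was lower (29.9%). The group mean of Pdgfra was 8.34 at 50% and 7.12 at 48 h. Array 3 of the 95% stage stood apart, with a residual SD of 0.240 around its group means against 0.0705 to 0.158 on the other 11 arrays. RNA of whole cultures was measured, so fewer cells with a transcript and less transcript per cell cannot be told apart, and the part of the markers' changes in the members' changes was not tested.

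Most members were higher at 48 h than at 50% confluence. In that comparison 32 of 37 tested members rose, against 26.6% of all genes tested, and 2 fell, Scap and Npc2, against 29.9%. Me1, Fasn and Elovl5 did not pass. A called rise of at least 2-fold was seen in 20 members and in 5.61% of all genes. The log2 intensities of 36 of the 37 members did not overlap between the stages, which was so for 65.9% of all genes. Over the 40 measured members the median log2 change was 0.99, against 0.00 over all 19057 genes with a probe.

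The rise came in 2 steps, at confluence and in the first day of differentiation. At 95% against 50% confluence, 25 members rose (18.9% of all genes did), 1 fell, Srebf1 (21.0% of all genes), and 11 did not pass. At that step 9 members were called at least 2-fold higher (0.767% of all genes), and the arrays of 30 members did not overlap (43.7%). At 24 h against 95%, 26 rose (16.0% of all genes), 0 fell (21.3%) and 11 did not pass. Here 8 members were called at least 2-fold higher (2.36%), and 26 had arrays that did not overlap (45.7%). The median log2 change over the 40 measured members was 0.45 at each of these steps, against 0.00 and -0.01 over all genes with a probe. Over the second day the members divided: 13 were higher at 48 h than at 24 h (22.8% of all genes), 12 were lower (22.1%) and 12 did not pass. Of these 0 were called at least 2-fold higher (2.48%), the arrays of 28 did not overlap (62.1%), and the median over the 40 was -0.01, as it was over all genes with a probe. A change at any stage, tested with limma's moderated F-test, passed in 34 of 37 members and in 72.2% of all genes. The steps share arrays (the 95% arrays enter the first 2 steps and the 24 h arrays the last 2), so their values are given side by side only.

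**Figure D1:**
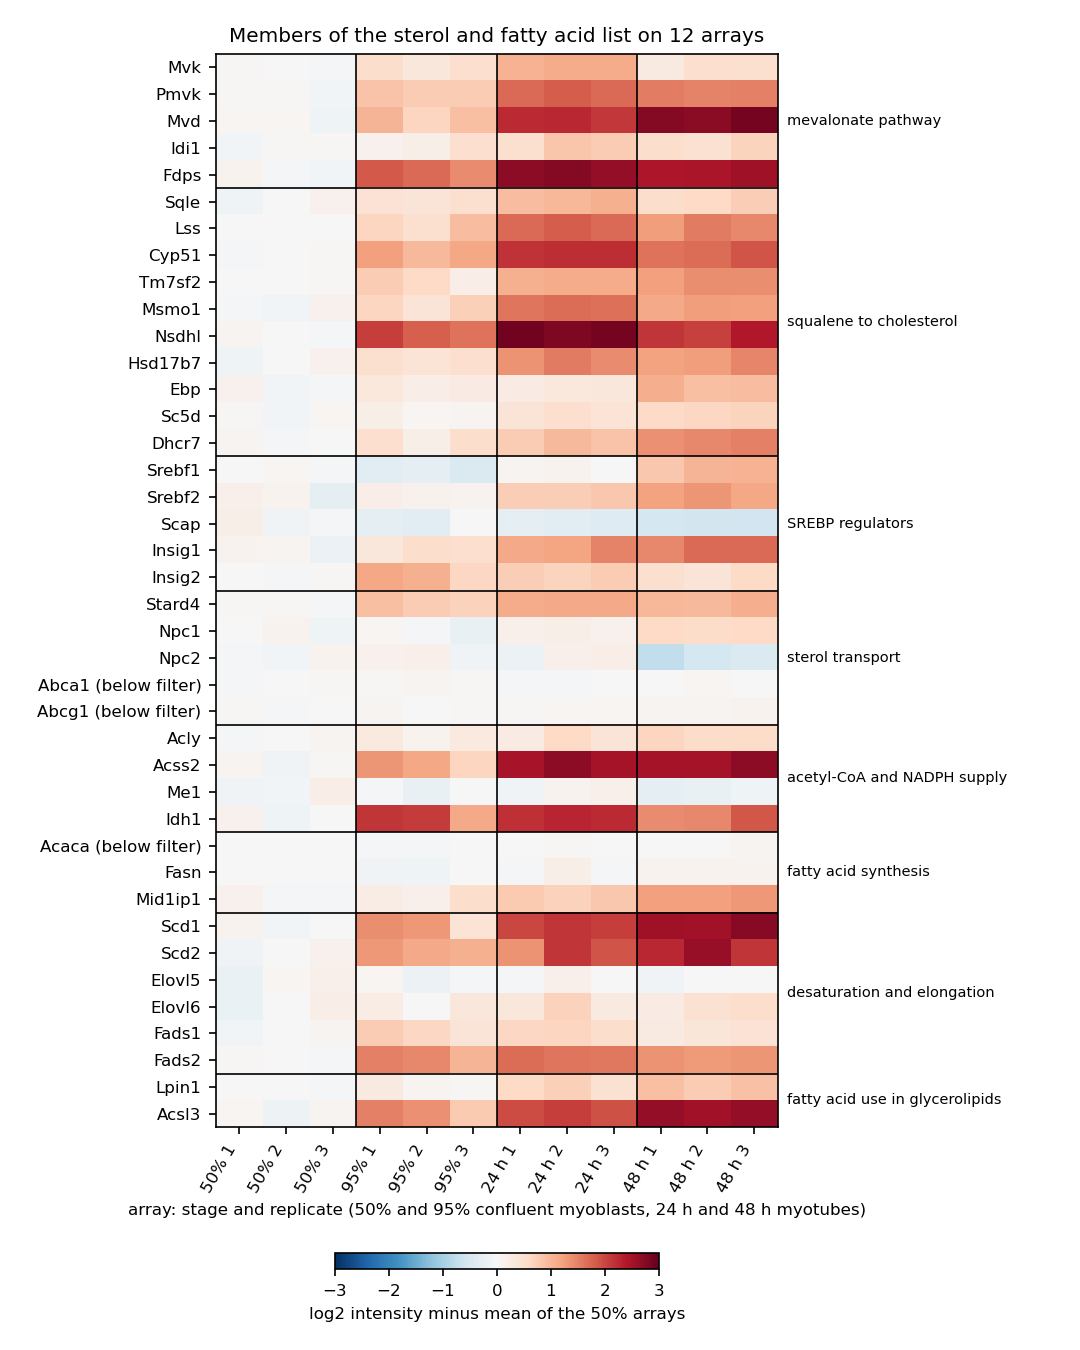
Each row is 1 of the 40 measured members, grouped by role, and each column 1 of 12 arrays; colour gives the log2 intensity minus the mean of the 3 arrays at 50% confluence. Mvd, Fdps, Nsdhl, Acss2, Scd1 and Acsl3 are among the darkest rows at 24 h and 48 h, while Fasn, Me1, Elovl5 and the rows below the filter stay pale.

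**Figure D2:**
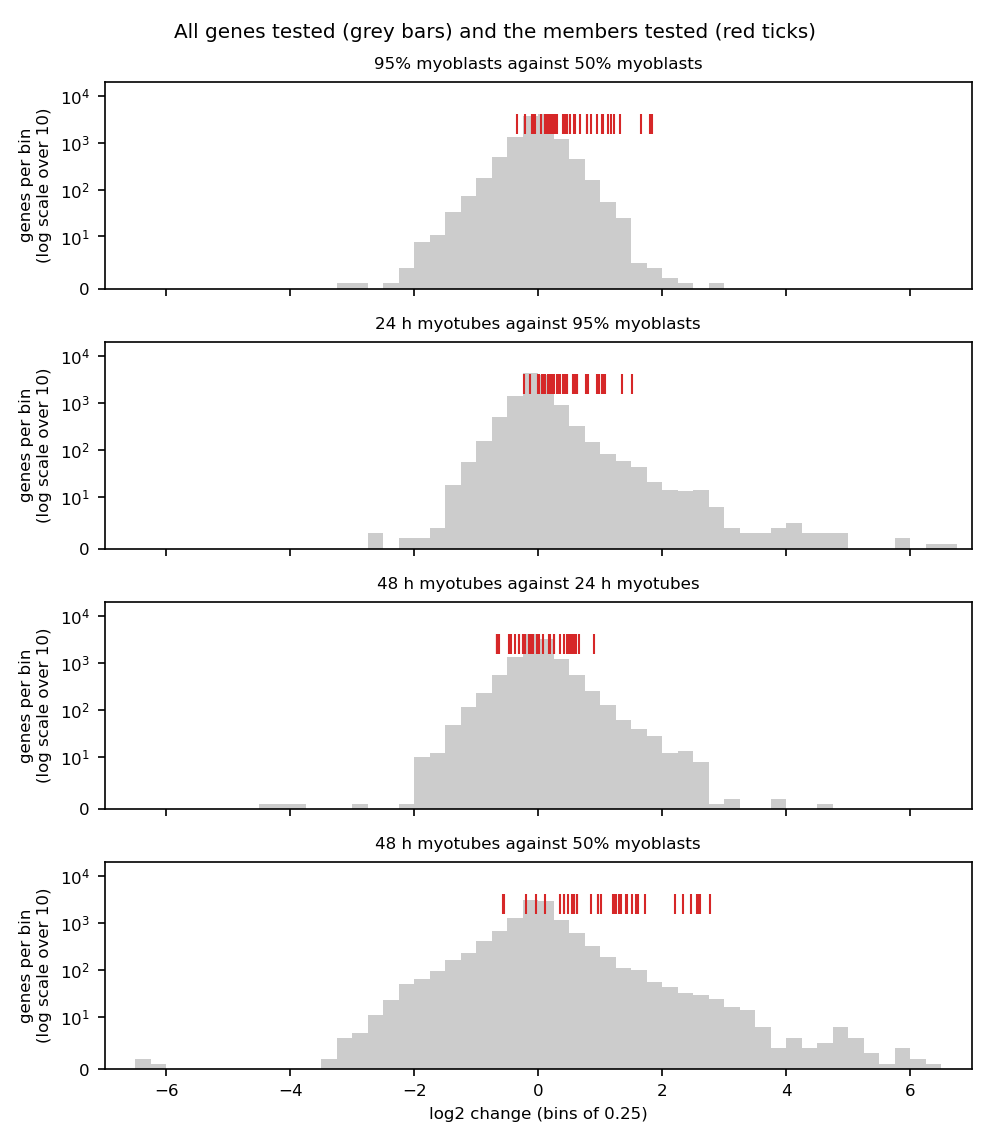
Grey bars count all 11870 genes tested by their log2 change in bins of 0.25 (vertical axis logarithmic above 10), and red ticks mark the 37 tested members. The ticks lie mostly right of 0 in every comparison but that of 48 h with 24 h, where they fall on both sides.

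Among the mevalonate enzymes, which turn acetyl-CoA into isoprenoid units, all 5 that were measured were higher at 48 h than at 50% confluence (26.6% of all genes were). Mvd, the decarboxylase that makes isopentenyl diphosphate, had the largest rise of all members in that comparison. Its log2 intensity was 7.92, 7.91 and 7.72 at 50%, 8.87, 8.49 and 8.76 at 95%, 10.09, 10.11 and 9.97 at 24 h and 10.59, 10.56 and 10.73 at 48 h. The 3 arrays of each stage lay wholly above those of the stage before. Mvd was 6.86-fold higher at 48 h than at 50% (log2 change 2.78 ± 0.09 SE, adjusted p = 3.36e-10), and its steps were 0.86, 1.35 and 0.57.

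Fdps, which joins isoprenoid units into farnesyl diphosphate, had log2 intensities of 11.48, 11.34 and 11.29 at 50%, 13.22, 13.08 and 12.78 at 95%, 14.05, 14.12 and 14.01 at 24 h and 13.79, 13.81 and 13.91 at 48 h. All arrays at 95% and later lay above all arrays at 50%, and the 48 h arrays lay between those of 95% and 24 h. The 95% arrays were 3.15-fold above the 50% arrays (log2 change 1.66 ± 0.09 SE, adjusted p = 4.9e-07), and the 24 h arrays were 2.05-fold above the 95% arrays (adjusted p = 6.32e-06). The change over the second day was -0.22 and did not pass (adjusted p = 0.08). It passed without array 1 (adjusted p = 0.038) or array 3 (adjusted p = 0.00735) of the 95% stage, which enter the shared estimate of the spread. A second, dimmer probe of Fdps gave another course, described with the other probes.

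Mvk, the first kinase of the mevalonate route, was at 7.78, 7.76 and 7.72 at 50%, 8.29, 8.10 and 8.24 at 95%, 8.80, 8.86 and 8.86 at 24 h and 8.02, 8.25 and 8.23 at 48 h. Its 24 h arrays were the highest and its 48 h arrays overlapped those of the 95% stage. Mvk fell over the second day to 0.627 times its 24 h level (log2 change -0.67 ± 0.07 SE, adjusted p = 6.62e-06), after rises of 0.46 and 0.63 on the log2 scale. Pmvk, the next kinase, rose by 0.79 and 0.95 and fell by 0.23 at the last step, and at 48 h stood 1.51 above its 50% level. Idi1, the isomerase of isopentenyl diphosphate, rose by 0.43 at 24 h against 95% (adjusted p = 0.00998) although 1 array of the 95% stage overlapped with 24 h, and its change at confluence, 0.27, did not pass (adjusted p = 0.0764) but did without array 1 of the 95% stage, at 0.34 (adjusted p = 0.0459). Without array 3 of that stage it was 0.14 (adjusted p = 0.214).

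From squalene to cholesterol, all 10 measured enzymes were higher at 48 h than at 50% (26.6% of all genes were), by 0.62 to 2.20 on the log2 scale. Nsdhl, a sterol dehydrogenase that takes part in the removal of methyl groups, had the largest rise of all members at confluence with all arrays, while without array 3 of the 95% stage Idh1 was first (2.12, against 1.94 for Nsdhl). The log2 intensities of Nsdhl were 8.22, 8.13 and 8.09 at 50%, 10.23, 9.95 and 9.78 at 95%, 11.05, 10.95 and 11.02 at 24 h and 10.29, 10.20 and 10.56 at 48 h. No arrays of neighbouring stages overlapped, and 24 h was the highest stage. The 95% arrays were 3.58-fold above the 50% arrays (log2 change 1.84 ± 0.11 SE, adjusted p = 6.66e-07). Nsdhl rose by a further 1.02 at 24 h and fell by 0.66 at 48 h (adjusted p = 4e-04).

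Cyp51, the lanosterol demethylase, was measured at 9.27, 9.32 and 9.34 at 50%, 10.54, 10.28 and 10.48 at 95%, 11.47, 11.54 and 11.53 at 24 h and 10.94, 10.98 and 11.21 at 48 h. Again the stages did not overlap and 24 h was highest. The rise at confluence was 2.17-fold (adjusted p = 1.75e-06), that of the first day 2.12-fold (adjusted p = 9.67e-07), and the 48 h arrays were at 0.72 times the 24 h level (adjusted p = 0.000379). Sqle, the epoxidase that commits squalene to sterols, read 11.48, 11.62 and 11.74 at 50%, 12.05, 11.996 and 12.10 at 95%, 12.54, 12.61 and 12.68 at 24 h and 12.15, 12.22 and 12.35 at 48 h. Its changes were smaller but took the same course, with steps of 0.43, 0.56 and -0.37 that all passed.

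Ebp, a sterol isomerase of the late steps, rose at the first and last steps. Its log2 intensities were 10.46, 10.26 and 10.30 at 50%, 10.65, 10.54 and 10.58 at 95%, 10.60, 10.66 and 10.69 at 24 h and 11.44, 11.25 and 11.25 at 48 h. The 95% and 24 h arrays overlapped, and all 48 h arrays lay above all others. Ebp rose by 0.66 ± 0.07 SE over the second day (adjusted p = 8.42e-06), while its change over the first day, 0.06, did not pass (adjusted p = 0.53). Its rise at confluence, 0.25 (adjusted p = 0.0123), did not pass without array 2 of the 50% stage, where it was 0.21 (adjusted p = 0.0564).

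The other 6 enzymes of this stretch are given by their log2 changes. Lss (lanosterol synthase), Msmo1 (methylsterol monooxygenase) and Hsd17b7 (a ketosteroid reductase of the same stretch) rose by 0.47 to 0.68 at confluence and by 0.98 to 1.06 over the first day. Over the second day Lss and Msmo1 fell by 0.32 and 0.44, and Hsd17b7 changed by -0.14, which did not pass (adjusted p = 0.2). The fall of Lss did not pass without array 2 of the 24 h stage (-0.28, adjusted p = 0.092) or without array 1 (-0.24, adjusted p = 0.115) or 3 (-0.32, adjusted p = 0.0559) of the 48 h stage. Tm7sf2 (a sterol reductase), Sc5d (a sterol desaturase) and Dhcr7 (a reductase of the last steps) were highest at 48 h. Dhcr7 rose at all steps, by 0.40, 0.46 and 0.58, and Sc5d rose by 0.32 and 0.19 in the first and second days. Tm7sf2 rose by 0.51 and 0.58 at the first 2 steps, and its second-day change of 0.25 did not pass (adjusted p = 0.0924) with all arrays but passed without array 1 (adjusted p = 0.0399) or 3 (adjusted p = 0.00227) of the 95% stage.

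Most of the 15 sterol enzymes rose at both of the first steps, and they parted after 24 h. At confluence 13 rose (18.9% of all genes did) and 2 did not pass, and over the first day 14 rose (16.0% of all genes) and 1 did not pass. Over the second day 4 rose, Mvd, Ebp, Sc5d and Dhcr7 (22.8% of all genes), 7 fell (22.1%) and 4 did not pass. Their median log2 changes at these steps were 0.51, 0.95 and -0.22. For 48 h against 50% their median was 1.34, and all 15 rose (26.6% of all genes did). With the mean of the probes past the filter the first-day median was 0.56. With the second-brightest probe, which 5 of these enzymes have, the medians were 0.08, 0.13, -0.12 and 0.59. The group mean was highest at 24 h for 10 of them and at 48 h for Mvd, Tm7sf2, Ebp, Sc5d and Dhcr7, and it was lowest at 50% for all 15. Array by array, the median of the 15 enzymes stood above the 50% mean by 0.41 to 0.64 at 95%, by 1.35 to 1.56 at 24 h and by 1.23 to 1.43 at 48 h, so the 24 h and 48 h arrays overlapped in this median.

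**Figure D3:**
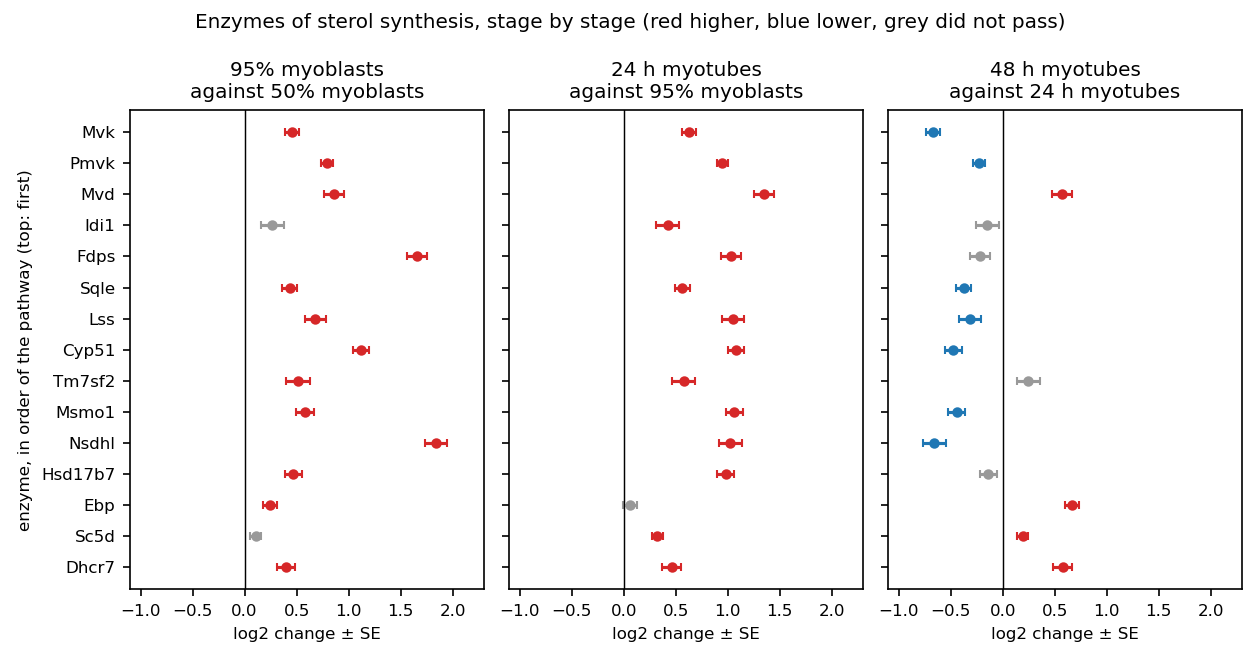
Points give the log2 change of the 15 measured sterol enzymes at each step, with bars of 1 SE from the fit; enzymes run from the first of the pathway at the top to the last at the bottom. Points lie right of 0 at the first 2 steps, and at 48 h against 24 h they lie on both sides, from -0.67 for Mvk to 0.66 for Ebp.

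Among the regulators, Srebf1, which encodes the SREBP best known for fatty acid genes, was the 1 member that fell at confluence in the fit to all arrays with the brightest probe. It read 7.62, 7.67 and 7.56 at 50%, 7.28, 7.35 and 7.18 at 95%, 7.69, 7.72 and 7.61 at 24 h and 8.41, 8.63 and 8.66 at 48 h. Its 95% arrays were the lowest, its 24 h arrays overlapped those of 50%, and its 48 h arrays were the highest. The change at confluence was -0.34 ± 0.07 SE (adjusted p = 0.00258), and the later steps were 0.41 (adjusted p = 0.00082) and 0.89 (adjusted p = 1.13e-06), the last being the largest rise of all members over the second day.

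Srebf2, whose product is best known for sterol genes, was at 9.75, 9.72 and 9.35 at 50%, 9.82, 9.74 and 9.72 at 95%, 10.35, 10.35 and 10.42 at 24 h and 10.83, 10.92 and 10.78 at 48 h. The 50% and 95% arrays overlapped, and each later stage lay above the one before. Its change at confluence, 0.15, did not pass (adjusted p = 0.217), and it then rose by 0.61 and 0.47. The change at confluence passed on its second probe (0.31, adjusted p = 0.000329) and with the mean of probes (0.23, adjusted p = 0.00401). At 48 h it was 2.35-fold above 50% (adjusted p = 2.34e-07).

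Scap, the escort, was lower at 48 h than at 50%. Its log2 intensities were 9.05, 8.77 and 8.81 at 50%, 8.61, 8.54 and 8.86 at 95%, 8.58, 8.55 and 8.49 at 24 h and 8.35, 8.32 and 8.31 at 48 h. Neighbouring stages overlapped up to 24 h, but all 48 h arrays lay below all arrays of the other stages. No single step passed, and at 48 h Scap was at 0.684 times its 50% level (log2 change -0.55 ± 0.09 SE, adjusted p = 0.00017). Without array 3 of the 95% stage the change at confluence was -0.30 and passed (adjusted p = 0.00318). Over the 12 fits without 1 array this change ran from -0.30 to -0.12, with adjusted p up to 0.303. It also passed as a fall with array weights (-0.26, adjusted p = 0.0146). The second-day change of -0.21 passed without array 3 of the 95% stage (adjusted p = 0.0143) or without array 1 of the 50% stage (adjusted p = 0.0404).

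On their brightest probes, the retention factors had their highest means at different stages. On both other probes of Insig1 past the filter, all 24 h arrays lay above all 48 h arrays. Insig1, itself a known SREBP target, was at 8.33, 8.32 and 8.05 at 50%, 8.57, 8.77 and 8.74 at 95%, 9.37, 9.42 and 9.72 at 24 h and 9.67, 9.92 and 9.94 at 48 h. It rose by 0.46 and 0.81 at the first 2 steps, and at 48 h stood 3.05-fold above 50% (adjusted p = 1.29e-07). The second-day rise of 0.34 (adjusted p = 0.0246) came with overlapping arrays, did not pass in 4 of the 12 fits that left out 1 array (without array 1 or 2 of the 24 h stage or array 2 or 3 of the 48 h stage, 0.28 to 0.30, adjusted p from 0.0864 to 0.101), and had the opposite sign on both other probes of the gene that passed the filter.

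Insig2 read 9.38, 9.32 and 9.39 at 50%, 10.52, 10.44 and 9.98 at 95%, 10.10, 10.03 and 10.13 at 24 h and 9.84, 9.75 and 9.96 at 48 h. On the brightest probe it was with Fads1 the only tested member whose mean was highest at 95%. Its array 3 of that stage lay below the 24 h arrays while the other 2 lay above them. The rise at confluence was 1.93-fold (log2 change 0.95 ± 0.11 SE, adjusted p = 6.15e-05). Neither later step passed with all arrays, at -0.23 (adjusted p = 0.141) and -0.24 (adjusted p = 0.114). Without array 3 of the 95% stage both passed as falls, at -0.39 (adjusted p = 0.000216) and -0.24 (adjusted p = 0.00297). Without array 1 of that stage the first-day change was -0.12 (adjusted p = 0.419). At 48 h Insig2 was still above 50%, by 0.49.

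**Figure D4:**
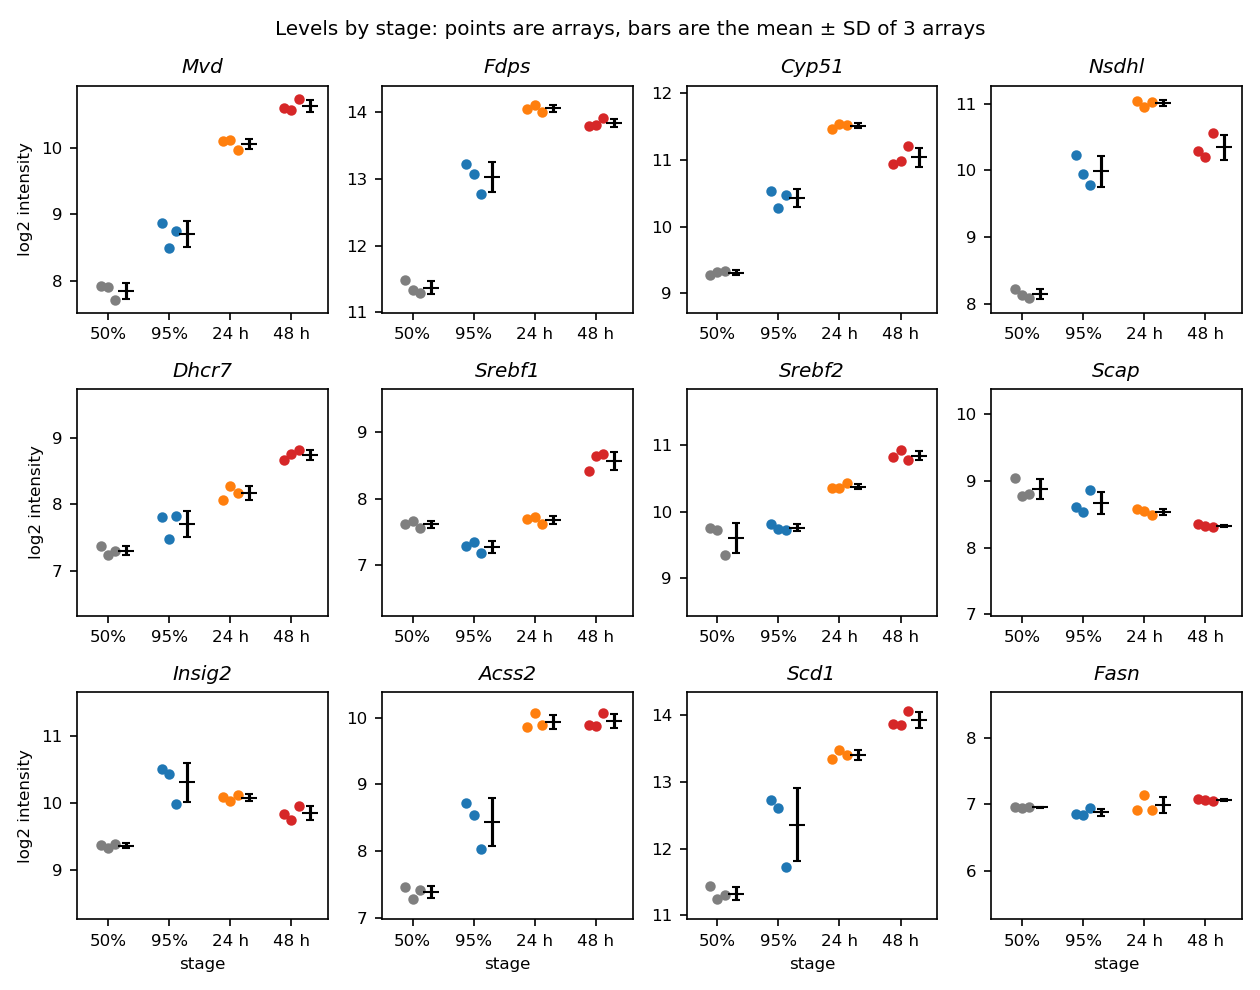
Log2 intensity of 12 members by stage, each point 1 array and each bar the mean ± SD of 3 arrays; all panels span the same number of log2 units. Mvd and Scd1 rise at each step, Cyp51 and Nsdhl are highest at 24 h, Srebf1 is lowest at 95%, Scap is lowest at 48 h, Insig2 has its highest mean at 95%, and all Fasn arrays lie between 6.83 and 7.13.

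Of the 5 sterol transport genes 3 were tested, and at 48 h against 50% 2 of them rose (26.6% of all genes did) and 1 fell (29.9%). Stard4, a carrier that moves sterol between membranes, was at 9.03, 9.02 and 8.93 at 50%, 9.90, 9.76 and 9.69 at 95%, 10.11, 10.14 and 10.14 at 24 h and 9.99, 9.97 and 10.08 at 48 h. All later arrays lay above all 50% arrays. Stard4 rose by 0.79 at confluence (adjusted p = 2.53e-06) and by 0.34 over the first day, and its second-day change of -0.12 did not pass (adjusted p = 0.129).

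Npc2, which passes cholesterol to Npc1 for export from lysosomes, had log2 intensities of 10.76, 10.71 and 10.88 at 50%, 10.91, 10.93 and 10.67 at 95%, 10.62, 10.93 and 10.99 at 24 h and 10.03, 10.25 and 10.34 at 48 h. The first 3 stages overlapped, and the 48 h arrays lay below all others. Npc2 fell over the second day, by 0.64 ± 0.11 SE on the log2 scale (adjusted p = 0.000487), and was at 0.672 times its 50% level at 48 h. Npc1 took the opposite course over the second day, with a rise of 0.42 (adjusted p = 0.000559). Its first-day rise of 0.22 (adjusted p = 0.034) did not pass in 5 of the 12 fits without 1 array (arrays 2 and 3 of the 95% stage and each of the 24 h arrays, 0.14 to 0.24, adjusted p from 0.0521 to 0.0986).

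The efflux pumps Abca1 and Abcg1 lay below the filter. Abca1 was at 6.43, 6.50 and 6.50 at 50%, 6.51, 6.57 and 6.51 at 95%, 6.43, 6.45 and 6.50 at 24 h and 6.47, 6.53 and 6.50 at 48 h, under the array median of 6.68 on every array. Abcg1 was at 6.48 to 6.62 on all arrays. Such values give no course for these transcripts, since their probes were in the dimmer part of every array.

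Of the genes that supply acetyl-CoA and NADPH, Acss2 and Idh1 had the largest changes. Acss2, which makes acetyl-CoA from acetate, was at 7.46, 7.28 and 7.41 at 50%, 8.71, 8.55 and 8.02 at 95%, 9.85, 10.06 and 9.89 at 24 h and 9.89, 9.88 and 10.07 at 48 h. The 95% arrays lay between those of 50% and 24 h, and the 24 h and 48 h arrays overlapped. Its first-day rise was 2.84-fold (log2 change 1.51 ± 0.14 SE, adjusted p = 7.98e-06), after 2.06-fold at confluence (adjusted p = 0.000155), and the second-day change of 0.01 did not pass (adjusted p = 0.954).

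Idh1, a cytosolic source of NADPH, read 9.25, 8.99 and 9.14 at 50%, 11.28, 11.23 and 10.27 at 95%, 11.32, 11.42 and 11.36 at 24 h and 10.55, 10.56 and 10.99 at 48 h. Array 3 of the 95% stage was 0.98 below the mean of the other 2, but all 95% arrays lay above those of 50%. The rise at confluence was 3.47-fold (log2 change 1.80 ± 0.22 SE, adjusted p = 7.25e-05), and the log2 change was 2.12 without that array. The first-day change of 0.44 did not pass (adjusted p = 0.141), though it did without array 1 of the 95% stage (0.62, adjusted p = 0.0482), and it was 0.11 without array 3. Idh1 fell over the second day by 0.66 (adjusted p = 0.0267), a call lost in 5 of the 12 fits without 1 array (any of the 24 h arrays, or array 1 or 2 of the 48 h stage, -0.69 to -0.59, adjusted p from 0.0551 to 0.0928).

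Acly, which makes acetyl-CoA from citrate, was 1.5-fold higher at 48 h than at 50% (adjusted p = 6.58e-05). Its rise at confluence, 0.23 (adjusted p = 0.0467), did not pass in 9 of the 12 fits without 1 array, where it was 0.19 to 0.26 (adjusted p from 0.0541 to 0.136); array 2 of the 95% stage and arrays 1 and 2 of the 24 h stage were those whose absence left it called. Its first-day change of 0.18 passed without array 1 of the 24 h stage (0.26, adjusted p = 0.0342) and was 0.09 without array 2 of that stage (adjusted p = 0.401). Its second-day change of 0.17 passed without array 2 (0.27, adjusted p = 0.0154) and was 0.10 without array 1 (adjusted p = 0.387). Me1, the malic enzyme that makes NADPH, was lower at 48 h than at 24 h (-0.25, adjusted p = 0.0428). That call was lost without array 2 or 3 of the 24 h stage or array 1 or 2 of the 48 h stage (-0.25 to -0.20, adjusted p from 0.101 to 0.154). Its other changes did not pass, that of 48 h against 50% being -0.20 (adjusted p = 0.0845).

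Fatty acid synthase itself passed none of the tests with all arrays. Fasn read 6.96, 6.95 and 6.96 at 50%, 6.86, 6.83 and 6.94 at 95%, 6.92, 7.13 and 6.91 at 24 h and 7.07, 7.07 and 7.05 at 48 h, close above the array median. The 95% arrays lay just below the 50% arrays and the 48 h arrays just above them, and none of the 4 changes, from -0.08 to 0.11, passed (the comparison of 48 h with 50% had an adjusted p of 0.152). Without array 2 of the 24 h stage the second-day change was 0.15 and passed (adjusted p = 0.0323). Acaca, which encodes an acetyl-CoA carboxylase, lay below the filter at 6.50, 6.50 and 6.48 at 50%, 6.46, 6.45 and 6.51 at 95%, 6.48, 6.52 and 6.49 at 24 h and 6.47, 6.51 and 6.58 at 48 h. Mid1ip1, whose product activates acetyl-CoA carboxylase, rose at each step, by 0.30, 0.46 and 0.50, and was 2.39-fold above 50% at 48 h (adjusted p = 1.25e-07). Its rise at confluence did not pass without array 2 (0.27, adjusted p = 0.0617) or 3 (0.27, adjusted p = 0.0641) of the 50% stage, and was 0.19 without array 3 of the 95% stage (adjusted p = 0.026).

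All 4 desaturases were higher at 48 h than at 50% (26.6% of all genes were). Of the elongases, Elovl6 was higher and Elovl5 did not pass. Scd1, a stearoyl-CoA desaturase that makes oleic acid, was at 11.44, 11.24 and 11.30 at 50%, 12.73, 12.62 and 11.73 at 95%, 13.34, 13.48 and 13.40 at 24 h and 13.87, 13.85 and 14.06 at 48 h. The stages did not overlap, and array 3 of the 95% stage was the lowest of its stage. At 48 h Scd1 was 6.08-fold above 50% (log2 change 2.60 ± 0.20 SE, adjusted p = 3e-07). Its rises at confluence and in the first day were 1.03 and 1.05, and without array 3 of the 95% stage they were 1.35 and 0.74. The second-day rise of 0.52 was close to the threshold (adjusted p = 0.0488) and passed in 3 of the 12 fits without 1 array, those without 1 of the 95% arrays (lowest adjusted p = 1.65e-05), and not in the other 9 (0.46 to 0.56, adjusted p from 0.0607 to 0.142).

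Scd2, the related desaturase, read 8.58, 8.67 and 8.80 at 50%, 9.99, 9.83 and 9.75 at 95%, 10.04, 10.84 and 10.57 at 24 h and 10.95, 11.30 and 10.83 at 48 h. Its 24 h arrays were the most widely spread of the 4 stages, and the highest of them lay above the lowest 48 h array. Scd2 was 5.06-fold higher at 48 h than at 50% (adjusted p = 2.54e-07), with steps of 1.17, 0.62 and 0.54. The first-day step did not pass without array 2 (0.45, adjusted p = 0.0624) or 3 (0.58, adjusted p = 0.0539) of the 24 h stage. The second-day step did not pass without array 1 of the 24 h stage (0.32, adjusted p = 0.0848) or array 2 of the 48 h stage (0.41, adjusted p = 0.104). Scd1 and Scd2 are close in sequence, and whether their probes share signal was not tested.

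Fads2, a desaturase of polyunsaturated fatty acids, had log2 intensities of 7.98, 7.96 and 7.90 at 50%, 9.46, 9.39 and 8.97 at 95%, 9.62, 9.55 and 9.54 at 24 h and 9.29, 9.23 and 9.27 at 48 h. All later arrays lay above all 50% arrays, and the 48 h arrays lay below those of 24 h. The rise at confluence was 2.51-fold (adjusted p = 2.71e-06), and at 48 h Fads2 stood 2.49-fold above 50%. Its first-day rise of 0.30 was 0.14 without array 3 of the 95% stage (adjusted p = 0.0442) and did not pass without array 2 of the 50% stage (adjusted p = 0.0501) or any of the 24 h arrays (0.27 to 0.31, adjusted p from 0.0698 to 0.108). The second-day fall of 0.30 was lost without any 1 of the 24 h or 48 h arrays (-0.32 to -0.28, adjusted p from 0.0525 to 0.0821). Fads1, the other desaturase of that route, rose by 0.59 at confluence (adjusted p = 0.000286) and had a first-day change of 0.00 (adjusted p = 1). Its second-day fall of 0.24 (adjusted p = 0.0446) was lost in 8 of the 12 fits without 1 array (adjusted p from 0.0504 to 0.153) and kept without array 3 of the 50% stage, array 1 or 3 of the 95% stage or array 3 of the 48 h stage. Of the elongases, Elovl5 passed no test, with a range of group means of 0.09, and Elovl6 was higher at 48 h than at 50% by 0.41 (adjusted p = 0.0196). The rise of Elovl6 did not pass without array 1 (0.31, adjusted p = 0.0882) or 2 (0.41, adjusted p = 0.0501) of the 50% stage or array 2 (0.39, adjusted p = 0.0595) or 3 (0.36, adjusted p = 0.0726) of the 48 h stage.

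Both members that hand fatty acids on to glycerolipids rose in the first day (16.0% of all genes did) and in the second (22.8%). Acsl3, which activates long-chain fatty acids for lipid droplets, was at 9.37, 9.16 and 9.39 at 50%, 10.82, 10.67 and 10.08 at 95%, 11.26, 11.39 and 11.23 at 24 h and 11.95, 11.84 and 11.94 at 48 h. Each stage lay above the one before with no overlap. Acsl3 was 6.07-fold higher at 48 h than at 50% (log2 change 2.60 ± 0.15 SE, adjusted p = 2.47e-08), and its steps of 1.22, 0.77 and 0.62 all passed. Lpin1, a phosphatidate phosphatase that also acts as a coactivator in the nucleus, read 6.88, 6.88 and 6.83 at 50%, 7.13, 6.94 and 6.91 at 95%, 7.45, 7.57 and 7.32 at 24 h and 7.76, 7.63 and 7.74 at 48 h. Its change at confluence, 0.13, did not pass (adjusted p = 0.197), and rises of 0.46 and 0.26 followed (adjusted p = 0.000543 and 0.0139). The last did not pass without array 3 of the 24 h stage (0.20, adjusted p = 0.0675) or array 1 of the 48 h stage (0.23, adjusted p = 0.0556).

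Of the 15 fatty acid members 14 were tested. At confluence 9 rose (18.9% of all genes did) and 5 did not pass, and over the first day 7 rose (16.0%) and 7 did not pass. Over the second day 5 rose (22.8%), 4 fell (22.1%) and 5 did not pass. For 48 h against 50%, 11 rose (26.6%) and 3 did not pass, and the median change over the 15 was 0.84 on the log2 scale. The group mean was highest at 48 h for 8 of the 14 and at 24 h for 5. Fasn among the 8, and Me1 and Elovl5 among the 5, did not pass the F-test. Acss2 among the 8 and Elovl6 among the 5 had second-day changes of 0.01 and -0.02 that did not pass.

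Because array 3 of the 95% stage stood apart, the members were also read without it. On that array 21 of the 37 tested members lay between the 50% mean and the mean of the other 95% arrays (56.8%), against 41.2% of all genes tested. Idh1 lay 0.98, Scd1 0.94, Acsl3 0.66 and Acss2 0.61 below the mean of the other 2 arrays there, and no member lay over 0.5 above it. These 4 are all fatty acid members. Among the sterol enzymes the differences ran from -0.48 for Tm7sf2 to 0.37 for Idi1. The median of the 15 sterol enzymes stood 0.525 above the 50% mean on array 3, between 0.636 on array 1 and 0.411 on array 2. Myotube markers were lowest and proliferation markers highest on the same array among the 3 at 95%, with mean log2 intensities of 6.92 and 11.11. Without it 24 members rose and 2 fell at confluence, against 23.3% and 25.7% of all genes in the same fit, and 25 rose and 1 fell in the first day, against 17.0% and 22.4%.

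Further probes of the same genes did not all follow the brightest. For 15 members more than 1 probe passed the filter, 35 probes in all, and in 14 of the 15 all probes had 1 sign for 48 h against 50%, the exception being Npc1. Some of these signs belong to values near 0: the second probe gave 0.01 for Fads1 (adjusted p = 0.948), 0.04 for Lss (adjusted p = 0.424), 0.08 for Acss2 (adjusted p = 0.165) and 0.10 for Hsd17b7 (adjusted p = 0.0469). The probes of Insig1 took opposite signs over the second day. The brightest probe rose by 0.34, while 2 dimmer probes fell by 1.15 and 1.16 after larger rises at the earlier steps (1.29 and 1.29 at confluence, 1.43 and 1.47 in the first day), and for 48 h against 50% the 3 probes gave 1.61, 1.57 and 1.61. A second probe of Sqle rose by 1.26 at confluence and fell by 1.22 over the second day, against 0.43 and 0.37 on the brightest.

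Fdps had a second probe that was near flat at confluence (-0.12), fell by 0.27 in the first day and rose by 1.46 in the second. On Nsdhl 3 of the 4 probes fell over the second day, by 0.65 to 0.85, and the remaining one changed by 0.02. A second probe of Scap fell by 0.68 at confluence and rose by 0.46 over the second day, and was 0.35 lower at 48 h than at 50%. Both probes of Srebf2 rose over the whole course, by 1.23 and 1.14. For Insig2 the second probe had smaller changes, 0.36 at confluence against 0.95 on the brightest. Its arrays of the last 3 stages overlapped, so it did not show the high 95% level of the brightest probe. They read 8.93, 8.97 and 8.56 at 95%, 8.82, 8.98 and 9.08 at 24 h and 8.93, 8.90 and 8.90 at 48 h. The rises and falls given for these further probes passed limma with p-values adjusted over all probes. Where probes of a gene lie on the transcript was not examined.

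**Figure D5:**
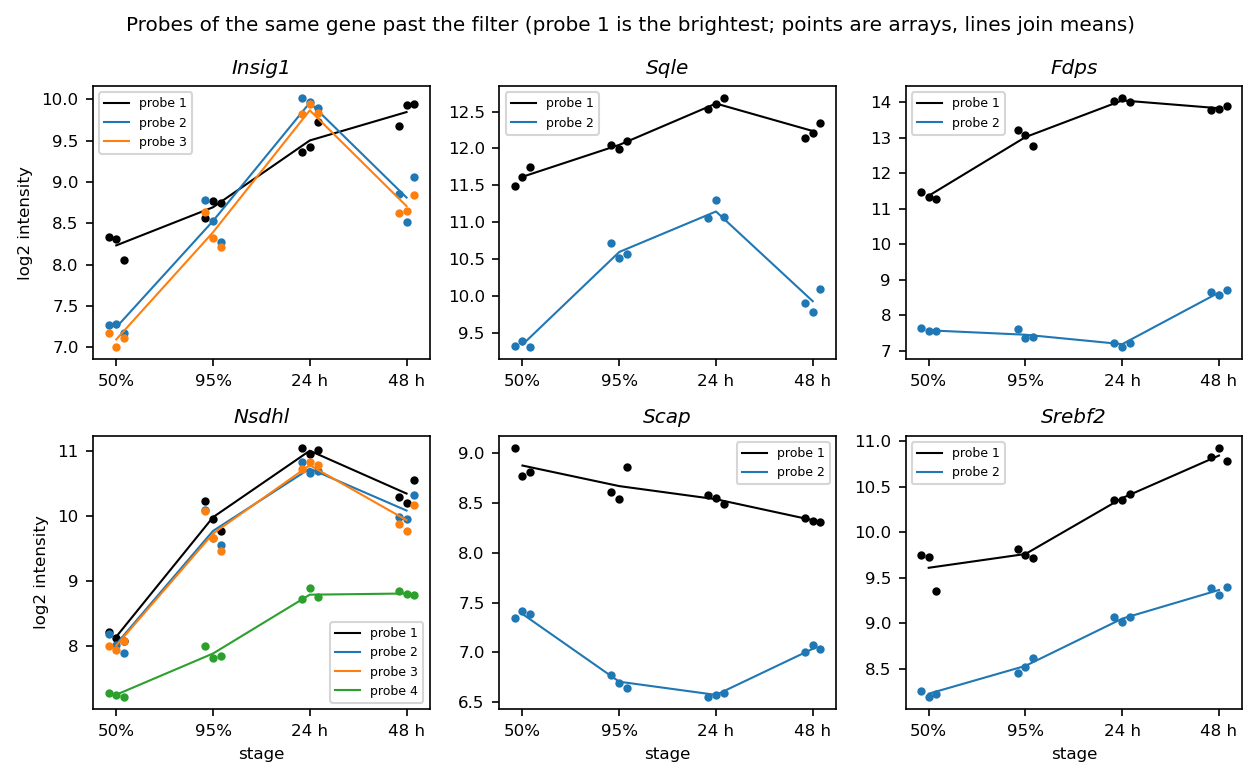
Log2 intensity by stage of each probe past the filter for 6 members, with 1 point per array and lines joining the stage means; probe 1 is the brightest and the one used for the tests. The Insig1 probes part between 24 h and 48 h, and the second probe of Fdps rises only at 48 h.

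Of 76 other genes listed for sterol, isoprenoid, fatty acid and glycerolipid metabolism, 65 had a probe and 55 were tested. At confluence 8 rose (18.9% of all genes did) and 17 fell (21.0%), in the first day 15 rose (16.0%) and 12 fell (21.3%), and in the second 19 rose (22.8%) and 16 fell (22.1%). For 48 h against 50% 20 rose (26.6%) and 19 fell (29.9%). The members and these genes were listed with earlier results of these data known, so their medians are given side by side only. The median log2 change for 48 h against 50% was 0.00 over the 65, against 0.99 over the 40 members. The largest rises in that comparison were those of Acsl6, an acyl-CoA synthetase (log2 change 3.45 ± 0.10 SE), of Vldlr, a lipoprotein receptor (1.90 ± 0.12 SE), and of Hacd1, a dehydratase of fatty acid elongation known from muscle (1.61 ± 0.05 SE). The largest falls were those of Acsl5, another acyl-CoA synthetase (-1.48 ± 0.08 SE), of Lrp8, a lipoprotein receptor (-1.41 ± 0.17 SE), and of Lbr, a sterol reductase of the nuclear envelope (-1.14 ± 0.12 SE). The adjusted p of these 6 changes was at most 2.05e-05. Lbr catalyses the same reduction as Tm7sf2, which was 1.34 higher at 48 h than at 50% on the log2 scale.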

How the data were processed

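Total RNA from 12 C2C12 samples was measured on Illumina bead arrays. The authors deposited a table of log2 intensities, and the submitters' processing notes name RMA and lumi without a version, order or role. Its 45281 probes range from 6.32 to 15.3, and the sorted columns differ by at most 0.003, so the arrays share 1 distribution. Whether the scale is plain log2 or variance-stabilized could not be told apart, so folds of dim probes may be understated. A further 24 columns of un-normalized values have names that match no sample's labels and were not used.

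The platform annotation named 34885 probes by 1 gene, 18 by several and 10378 by none, and 34807 symbols were taken through the gene identifier. The brightest probe over all 12 arrays stood for a gene, and a gene was tested if, in 1 group or more, each of the 3 arrays read above its own median. A model with 4 group means was fitted across all 11870 genes in limma 3.58.1 (R 4.3.3) with 8 residual and 3.59 prior degrees of freedom, was tested on simulated data, and gave contrasts adjusted by the Benjamini-Hochberg method. An adjusted p under 0.05 was called. Folds are computed from log2 differences. The 95% arrays spread more than the others while 1 spread per gene was fitted, so SEs of comparisons with them may be too small. For a single gene, an exact 2-sided permutation test of 3 against 3 cannot go below 0.1. The number of arrays limits the precision.

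Members and gene lists were chosen with earlier results of these data known. Values on every array are given for the 3 largest rises and 3 largest falls of each comparison, among members past the threshold whose arrays do not overlap, and for 18 members picked by role, of which Hmgcs1 had no probe. Of other genes of the routes, at most the 3 largest rises and 3 largest falls are named. Promoter windows are RefSeq's for GRCm38.p6. No pairing was assumed, because the labels do not say what a replicate number shares. Deviations of same-numbered replicates from their group means had r from -0.091 to 0.333, over 0.1 in 5 of 18 pairs. The r was 0.02 to 0.333 for replicate 1, -0.091 to -0.012 for replicate 2 and 0.024 to 0.241 for replicate 3. Alternatives were other filters, probe rules, variance settings, array weights, centring, the arrays of the groups compared alone, a replicate block and leaving out each array.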

Additional observations from a re-analysis of the deposited data

How the results depend on the processing

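Away from the choice of probe, no called change turned its direction under the settings run, while 7 changes that were not called crossed 0 in some fits without 1 array. With the second-brightest probe, which only 15 members have, 8 rose at confluence (23.4% of all genes in that fit did). In the first day 6 rose (14.4%) and 2 fell (19.2%), and in the second 4 rose (23.1%) and 4 fell (27.4%). At 48 h against 50%, 10 rose (23.5%) and 1 fell (30%). The F-test passed in 13 of these 15 members. The share of all genes passing it was counted only in the main fit, where it was 72.2%. That probe turned Fdps to -0.12 at confluence, -0.27 in the first day and 1.46 in the second, Npc1 to 0.32 at confluence and -0.14 in the second day, and Fads1 to -0.012 and 0.02 at the same steps. In the second day it also turned Scap to 0.46, Insig1 to -1.15, Fads2 to 0.052 and Acsl3 to -0.26. The mean of a gene's probes turned Fdps to 0.62, Scap to 0.13 and Insig1 to -0.65 in the second day. With the mean of probes 2 members fell at confluence (20.8% of all genes in that fit) and 1 in the first day (21.6%). With array weights the counts of members were the same (23.7% and 21.4% of all genes). The cause of these changes was not tested. Leaving out each array in turn gave 22 to 25 members higher at confluence (15% to 23.3% of all genes in these fits) and 1 to 2 lower (17.3% to 25.7%). In the first day 23 to 27 were higher (13.2% to 17%) and 0 to 1 lower (17% to 22.4%). In the second 10 to 14 were higher (19.9% to 26%) and 7 to 15 lower (18.5% to 26.7%). The 7 came without array 2 of the 24 h stage or array 1 of the 48 h stage. At 48 h against 50%, 31 to 32 were higher (24.5% to 28.8%) and 2 lower in every fit (27.5% to 32.4%). By the F-test 33 to 35 members passed in these fits, where the share of all genes was not counted. With all arrays 34 of 37 members and 72.2% of all genes passed it. Of the calls, 23 of 26 at confluence, 23 of 26 in the first day, 16 of 25 in the second and 33 of 34 at 48 h against 50% held in all 12 such fits. A replicate block changed 5 of 148 member calls: Acly at confluence (adjusted p = 0.0697), Scd1 (adjusted p = 0.0548) and Fads1 (adjusted p = 0.0656) in the second day no longer passed, while Idi1 at confluence (adjusted p = 0.0319) and Me1 at 48 h against 50% (adjusted p = 0.0324) did. Under the block 12 members rose (22.9% of all genes in that fit) and 11 fell (22.5%) in the second day. Of the 12 arrays, 4 lay closest to their own number in every other group. Other filters, centring and the variance setting each changed at most 5 of 148 calls. With array weights 2 calls were lost and 9 gained, and with only the arrays of the groups compared 6 were lost and 5 gained. The un-normalized columns and the slide as a block were not run, for want of a tie to samples, and neither was the exact permutation test of single members. Members near the array median, such as Fasn and Idi1, lie where the arrays resolve least.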
